A study of Mus musculus with 3 samples.

Results

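The GATA transcription factor family was examined in the embryonic ureter, the duct by which the kidney empties into the bladder. The family was taken as the 6 genes Gata1 to Gata6, found as each probe set that the platform annotation gives to 1 of these symbols alone. This gave 6 of 18194 named genes and 11 of 34958 probe sets with 1 gene symbol. All 3 samples belong to 1 group and are named replicates 3, 8 and 9. They are wild-type ureters of the FVB/N strain, taken at embryonic day 15 (Theiler stage 23) from embryos of unknown sex, and were not pooled. Each ureter was cut out between the renal pelvis and the bladder, and its total RNA was amplified in 2 rounds and labelled with biotin for an Affymetrix Mouse Genome 430 2.0 array, which reads 1 colour. No second group was analysed here, so each level below is a description of this tissue at 1 stage. Whether each sample is a different embryo is not stated, so their spread may be partly technical, and 3 arrays limit the precision of each level.

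GATA factors are zinc finger proteins that bind DNA at the letters GATA, usually flanked by A or T in front and A or G behind. Gata1, Gata2 and Gata3 are known as the haematopoietic members, and Gata4, Gata5 and Gata6 as the members of heart, gut and other mesoderm and endoderm. In the urinary tract, Gata3 is known as a regulator of the nephric duct and the ureteric bud, and Gata2 is known to be needed for normal urogenital development. GATA factors work with FOG cofactors and, in blood and endothelium, in complexes with Tal1, Lmo2 and Ldb1.

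Of the 6 GATA genes, 5 were above background on all 3 arrays, against 54.2% of all named genes. Gata1, Gata2, Gata3, Gata5 and Gata6 were above it, and Gata4 was not above it on any array. Background was the 95th percentile of 55 measured reference genes, which are known from lens, retina, thyroid, pancreas and other distant tissues. Its value was 320 for replicate 3, 379 for replicate 8 and 502 for replicate 9. Of the reference genes, 2 exceeded it on all arrays, Cela1 of the pancreas and Grm4 of the cerebellum. Signals are the deposited linear intensities, and each gene is given by the brightest of its probe sets, by mean log2 signal. By probe set, 6 of 11 were above background on all arrays, against 42.6% of all probe sets with 1 symbol, and the other 5 were not above it on any array. Probe sets bind and label unequally, so the signals do not rank the 6 genes. In a whole tissue, fewer cells of a type and less RNA per cell cannot be told apart. The 54.2% is the share to set beside the count of each gene list below.

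**Figure D1:**
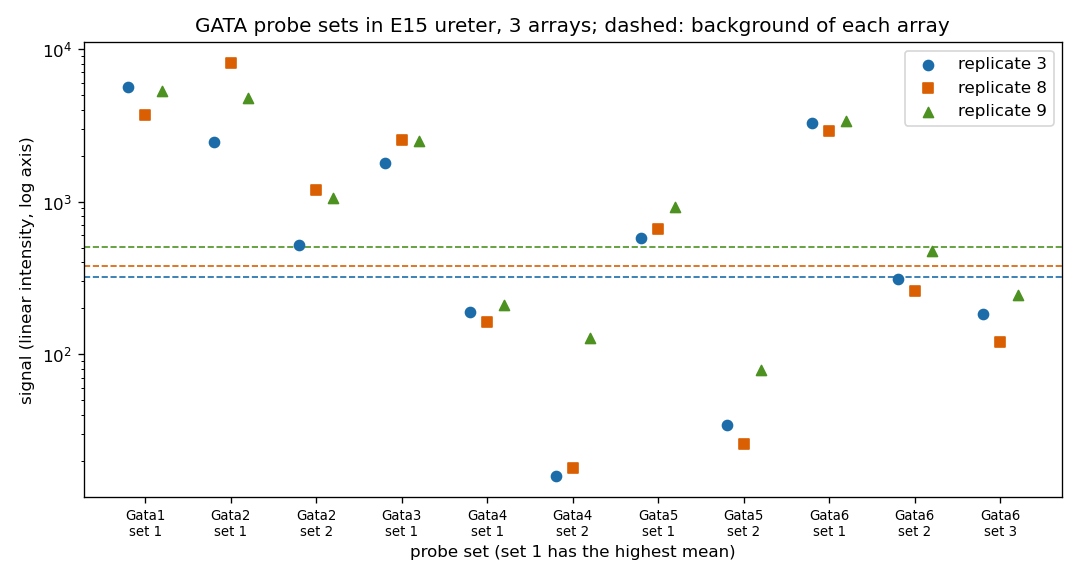
Signal (linear intensity on a log axis) of the 11 GATA probe sets on the arrays of replicates 3, 8 and 9 (points), with the background of each array as a dashed line of the same colour. Gata1, Gata2 and Gata3 lie above the line of each array with every probe set, Gata5 and Gata6 with 1 probe set each, and Gata4 with none.

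Over the arrays as a whole, the median signal was between 198 and 273, and the background was lowest in replicate 3 and highest in replicate 9. Pairs of arrays were compared across the 9859 genes above background. Genes are not independent replicates. Pearson's r of log2 signals was 0.932 to 0.946 and Spearman's rho 0.925 to 0.943. Control probe sets at the 3′ end of Gapdh were brighter than those at its 5′ end by 3.92 to 4.24 on the log2 scale, and those of Actb by 2.00 to 2.90. In amplified RNA of this kind, probe sets far from the 3′ end can be dim although the gene is expressed. Transcripts of the urothelium, the lining of the ureter, were above background for 10 of 13 structural genes, with the keratin gene Krt8 at 20576 ± 3054 (SD, n = 3, as for all values with ±). Of the uroplakin genes, Upk1b (1766 ± 804) and Upk3b (1921 ± 699) were above background on all arrays. Upk3a (251 ± 229) was above it on 1 array, while Upk2 (99 ± 49) and Upk1a (269 ± 131) were below it on every array. Of 12 genes of smooth muscle 9 were above background, against 54.2% of all named genes. The smooth muscle actin gene Acta2 was at 31713 ± 3969, with 1 of its 3 probe sets above background. The smooth muscle genes Myh11 (1244 ± 674) was above it on 2 arrays, and Cnn1 (283 ± 178) and Lmod1 (220 ± 113) on 1 each.

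Gata1, the master regulator of red cell and megakaryocyte formation, gave 5615 units of signal in replicate 3, 3697 in replicate 8 and 5325 in replicate 9. Its mean was 4879 ± 1034, from its 1 probe set. Replicate 8 was the lowest and the other two lay close together, and the highest signal was 1.52 times the lowest. The range after centring each array was 0.62 on the log2 scale, larger than in 59.5% of the genes above background.

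Gata1 was accompanied by erythroid transcripts, of which 10 of 11 measured genes were above background. The embryonic globin gene Hbb-y had a signal of 52093 ± 9105, the anion exchanger gene Slc4a1 26362 ± 10237, the transferrin receptor gene Tfrc 19580 ± 5437 and the haem synthesis gene Alas2 17251 ± 13093. The exception was the erythropoietin receptor gene Epor, with signals of 754, 327 and 618 in replicates 3, 8 and 9, above background on 2 arrays. The summed signal of the 11 genes lay between 98437 in replicate 8 and 213370 in replicate 3, with replicate 9 at 143686.

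The array with the lowest Gata1 signal was also the lowest for most erythroid genes. Of the 10 erythroid genes above background, 9 were lowest in replicate 8, against 29.9% of all genes above background. Alas2 gave 32354, 9108 and 10292 in replicates 3, 8 and 9, and the blood group genes Rhd and Kel gave 19614, 4016 and 10091, and 10189, 2531 and 4710. The median centred deviation (log2) of the erythroid genes was 0.79, -0.68 and -0.01 in replicates 3, 8 and 9, whereas Gata1 deviated by 0.22, -0.40 and 0.18. Liver transcripts showed the same low array. Of 9 endoderm and hepatocyte genes above background (of 12 measured), 8 were lowest in replicate 8, among them the alpha-fetoprotein gene Afp (54027, 34837 and 48948) and the albumin gene Alb (51919, 33690 and 44594). The summed signal of the endoderm and hepatocyte genes was 229496, 125014 and 183133 in replicates 3, 8 and 9. The intestinal genes Cdx1 (7.0 ± 2.7) and Vil1 (146 ± 21) of the same list were below background on every array, and Cdx2 (530, 23 and 120 in replicates 3, 8 and 9) was above it in replicate 3. Whether blood or liver RNA in the dissections set the Gata1 signal was not tested.

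**Figure D2:**
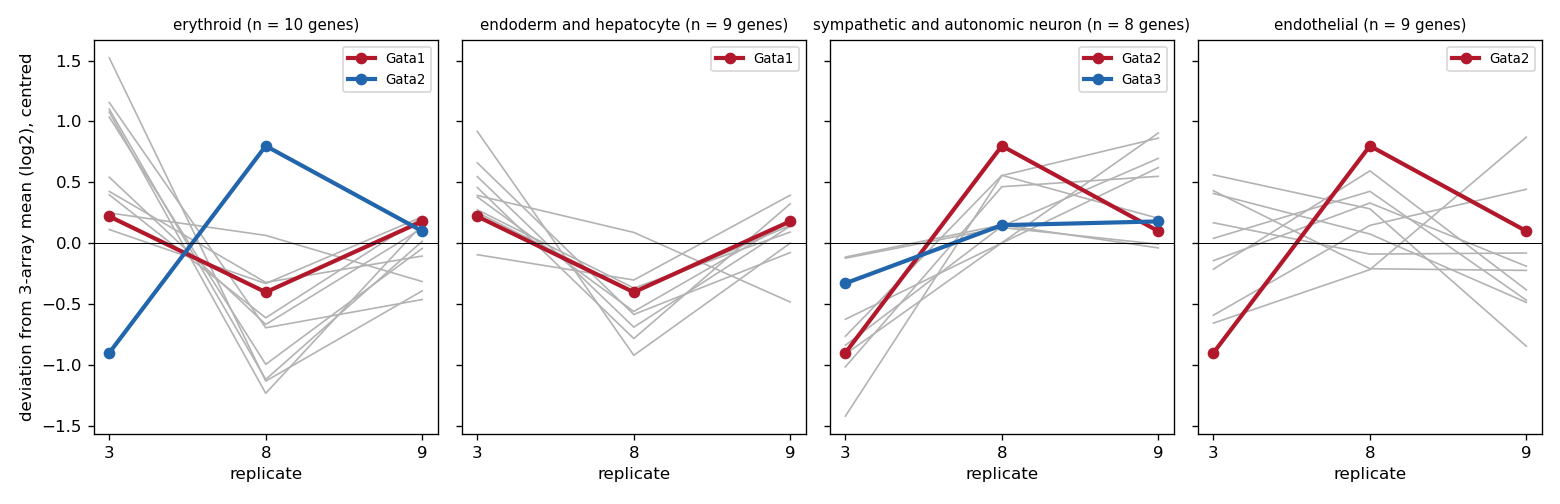
Deviation of each gene from its 3-array mean (log2, centred on each array's median deviation) in replicates 3, 8 and 9, for the genes above background of 4 marker lists (grey lines) and for the GATA genes named in each panel (coloured lines). Gata1 and most erythroid and liver genes dip in replicate 8, Gata2 and Gata3 are lowest in replicate 3 as are the sympathetic neuron genes, and 2 of 9 endothelial genes are lowest in replicate 3.

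Platelet and mast cell genes, of lineages that use Gata1 and Gata2, were above background for 7 of 13. This is 53.8%, near the 54.2% of all named genes. The platelet chemokine genes Pf4 (4067 ± 1475) and Ppbp (2785 ± 2122) and the mast cell protease gene Cpa3 (1828 ± 1468) had the highest means. The receptor gene Kit, of mast cells and other progenitors, had a mean of 997 ± 259. The mast cell genes Mcpt4 (15 ± 1.0), Tpsb2 (79 ± 28) and Ms4a2 (95 ± 26) and the platelet glycoprotein gene Gp5 (172 ± 97) were below background on every array. The summed signal of all 13 platelet and mast cell genes was 14370, 8475 and 16839 in replicates 3, 8 and 9, again lowest in replicate 8.

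Promoters of 4 GATA genes and 9 erythroid genes were given by RefSeq (build GRCm38.p6), each from 250 bases before to 50 after the transcription start. The motif searched was the 6 letters AGATAA, or the same with T as the first letter (TGATAA), with G as the last (AGATAG), or with both (TGATAG), on either strand and with any overlap counted, and 29.8% of 32851 promoters of this length held it at least once. It was found in 8 of 11 erythroid promoters and in 1 of 5 GATA promoters. A match is a description of the letters and not a bound site. The erythroid promoters without it were both of Tfrc, which overlap each other, and 1 of the 2 of Uros. Tfrc was lowest in replicate 8 too. Uros, with the motif in its other promoter, was lowest in replicate 9 (2577, 2298 and 1701 in replicates 3, 8 and 9). Whether the motif goes with the array order was not tested. The promoters of Alas2, Kel and Rhd are shown as examples that hold the motif, of genes lowest in replicate 8 as Gata1 was, and that of Gata3 because it was the GATA promoter with a match. Capitals mark the motif, which in Alas2 stands as its reverse complement. The first capital lies at position -86 from the start in Alas2, at -56 and -19 in Kel, at -43 in Rhd and at 36 in Gata3.
Alas2, chrX:150547167-150547466, plus strand: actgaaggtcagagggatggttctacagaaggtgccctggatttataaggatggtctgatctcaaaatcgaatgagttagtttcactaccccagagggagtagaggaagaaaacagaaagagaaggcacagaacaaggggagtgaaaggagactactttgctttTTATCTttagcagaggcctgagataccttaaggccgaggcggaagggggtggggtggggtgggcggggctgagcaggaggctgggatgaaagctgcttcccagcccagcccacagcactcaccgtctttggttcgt
Kel, chr6:41704276-41704575, minus strand: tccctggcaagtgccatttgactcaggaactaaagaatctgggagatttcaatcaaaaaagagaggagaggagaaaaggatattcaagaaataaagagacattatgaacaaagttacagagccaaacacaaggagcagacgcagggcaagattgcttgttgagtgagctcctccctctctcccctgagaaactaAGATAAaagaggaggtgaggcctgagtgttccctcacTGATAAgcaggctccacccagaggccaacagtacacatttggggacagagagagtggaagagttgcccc
Rhd, chr4:134864286-134864585, plus strand: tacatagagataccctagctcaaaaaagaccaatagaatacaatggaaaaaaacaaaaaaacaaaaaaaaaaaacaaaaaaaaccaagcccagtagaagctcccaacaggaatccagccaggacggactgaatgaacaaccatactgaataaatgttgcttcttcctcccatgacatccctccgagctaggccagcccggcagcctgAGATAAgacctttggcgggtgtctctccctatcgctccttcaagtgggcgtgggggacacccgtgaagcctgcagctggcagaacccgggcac
Gata3, chr2:9878551-9878850, minus strand: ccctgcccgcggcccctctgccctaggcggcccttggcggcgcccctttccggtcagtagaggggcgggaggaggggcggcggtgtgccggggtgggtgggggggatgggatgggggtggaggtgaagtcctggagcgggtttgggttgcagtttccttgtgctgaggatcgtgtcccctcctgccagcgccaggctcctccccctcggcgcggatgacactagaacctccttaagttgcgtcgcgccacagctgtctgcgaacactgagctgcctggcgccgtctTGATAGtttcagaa

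Gata2, a regulator of blood progenitors, endothelium, some neurons and the urogenital mesenchyme, gave 2449 units of signal in replicate 3, 8055 in replicate 8 and 4774 in replicate 9, with a mean of 5093 ± 2817. Its other probe set gave 518, 1183 and 1062, with a mean of 921 ± 355. Both probe sets were above background on all arrays, and in both replicate 3 was the lowest and replicate 8 the highest. The highest signal was 3.29 times the lowest with the brighter probe set and 2.29 times with the other. The centred range of Gata2 was 1.70 (log2), larger than in 97.6% of the genes above background. Without replicate 3 it was 0.71.

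The array order of Gata2 was the opposite of that of Gata1 and of most erythroid genes, which were high in replicate 3 and low in replicate 8. Among all genes above background, 14.9% were highest in replicate 8 and lowest in replicate 3, as Gata2 was. Of 15 measured endothelial genes 9 were above background (60%), near the 54.2% of all named genes. Of these 9, 0 had the order of Gata2, 2 were lowest in replicate 3 and 7 were lowest in replicate 9. Replicate 9 was the lowest for 38.9% of all genes above background. The transcription factor gene Sox17 had a signal of 4709 ± 1063, the angiopoietin receptor gene Tek 2929 ± 1308, the cadherin gene Cdh5 2275 ± 700 and the transcription factor gene Sox18 2180 ± 609. Tie1 (189 ± 86) and Flt1 (252 ± 46) were below background on every array, and Pecam1 was above it in 1 replicate. The summed endothelial signal was 23490, 23224 and 18927 in replicates 3, 8 and 9.

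Genes of sympathetic and autonomic neurons, cells in which Gata2 and Gata3 are known to act, were above background for 8 of 11. This is 72.7%, beside 54.2% of all named genes. All 8 were lowest in replicate 3, as Gata2, Gata3 and Gata5 were, against 31.2% of all genes above background. The full order of Gata2, highest in replicate 8 as well, was shared by 3 of 8, against 14.9% of all genes above background. That of Gata5, lowest in replicate 3 and highest in replicate 9, was shared by 5 of 8. The share of all genes with the Gata5 order is not given here, so this count cannot be judged against it. The neuronal gene Stmn2 gave 1425, 5676 and 6761 in replicates 3, 8 and 9, and the noradrenaline synthesis genes Dbh and Th gave 622, 1190 and 2138, and 366, 1036 and 1058. Ddc, a decarboxylase gene of the same pathway, gave 5790, 6986 and 6115, and the neuronal RNA-binding protein gene Elavl4 gave 1501, 1827 and 1543, both with smaller differences between arrays than Stmn2, Dbh and Th. The noradrenaline transporter gene Slc6a2 gave 125, 1520 and 2466, so that it was above background in replicates 8 and 9. Chrna3 gave 195, 305 and 525 and Insm1 gave 256, 239 and 638, both above background in replicate 9 alone. Insm1 was lowest in replicate 8, unlike the genes above background. The summed signal of the 11 genes was 11641, 21692 and 24331. The median centred deviation of the 8 above background was -0.80, 0.15 and 0.59 (log2). Of the 8, 5 were highest in replicate 9, against 31.9% of all genes above background, and 4 after quantile normalization. The part of nerve cells in the Gata2 and Gata3 signals was not tested.

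Gata3 gave 1799 units of signal in replicate 3, 2537 in replicate 8 and 2494 in replicate 9, with a mean of 2277 ± 414 from its 1 probe set. Replicate 3 was the lowest and the other two were nearly equal, so which of them was higher changed with the scale: replicate 8 as deposited, and replicate 9 after centring or quantile normalization. The centred range was 0.51 (log2), larger than in 46.3% of the genes above background, and 0.02 without replicate 3.

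Of 15 measured regulators of the nephric duct and the urothelium, 12 were above background. The pioneer factor gene Foxa1 had a signal of 5301 ± 1781, the basal epithelial factor gene Trp63 3386 ± 631, the GDNF co-receptor gene Gfra1 1759 ± 186 and the AP-2 gene Tfap2a 1410 ± 465. The receptor gene Ret, a known target of Gata3 in the nephric duct, had signals of 388, 628 and 581 in replicates 3, 8 and 9, and 1 of its 2 probe sets was above background. Pax8 (178 ± 56) was below background on every array, Lhx1 (251 ± 190) was above it on 1 array and Pparg (440 ± 161) on 2. Of the 12, 6 were lowest in replicate 3, among them Ret, Foxa1 and Emx2, against 31.2% of all genes above background. The summed signal of the 15 regulators was 16075, 22629 and 19341. Of the 10 urothelial structural genes above background, 0 were lowest in replicate 3 and 7 were lowest in replicate 9, the array that was lowest for 38.9% of all genes above background. The epithelial adhesion genes Epcam and Cdh1 gave 2586, 8308 and 2414, and 2029, 4767 and 1759, both highest in replicate 8.

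Gata3 is also a lymphocyte factor, and T cell genes gave little signal. The T cell receptor complex genes Cd3e (30 ± 20), Cd3d (16 ± 8.2) and Cd3g (26 ± 18) and the recombination genes Rag1 (59 ± 70) and Rag2 (6.3 ± 2.9) were below background on every array. Of 8 measured genes of this list, 1 was above background on all arrays, Thy1 (945 ± 391), which neurons and fibroblasts express too. Il7r gave 614, 159 and 411 in replicates 3, 8 and 9, above background in replicate 3 alone.

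Gata4, a factor of heart, gonad and gut, gave 188 units of signal in replicate 3, 164 in replicate 8 and 210 in replicate 9 with its brighter probe set. The other probe set gave 16, 18 and 128. Neither was above background on any array. The distance of these probe sets from the 3′ end of the transcript was not analysed here. Gonad and adrenal genes, among them known Gata4 targets, were above background for 1 of 12. That gene was Inha, an inhibin subunit gene (1149 ± 383), while the anti-Müllerian hormone gene Amh (12 ± 5.0) and Nr0b1 (110 ± 101) were below it on every array. The other genes of the list were above it on 2 arrays (5 genes) or on 1 array (4 genes), such as Dmrt1 (467, 9.2 and 54 in replicates 3, 8 and 9) and Cyp17a1 (412, 51 and 97). The heart genes Nppa (70 ± 57), Nppb (197 ± 20) and Myl7 (256 ± 13) and the cardiac factor gene Nkx2-5 (189 ± 45) were below background on every array as well. Of the 11 heart muscle genes 6 were above background (54.5%), near the 54.2% of all named genes. Actc1 was at 39407 ± 6162, Myl4 at 10601 ± 1106, the troponin gene Tnnt2 at 6921 ± 2265 and Myl2 at 4464 ± 3223. The phospholamban gene Pln was at 1437 ± 748 and the cardiac myosin gene Myh6 at 660 ± 181. Which tissue gave these signals was not tested.

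Gata5, a factor of endocardium, gut and other epithelia, gave 576 units of signal in replicate 3, 664 in replicate 8 and 918 in replicate 9, with a mean of 719 ± 178. Replicate 9 was the highest, and the array with the highest Gata5 signal was also the one with the highest background. The other Gata5 probe set gave 35, 26 and 79 and was below background on every array. The call was close to its limit. The pancreatic elastase gene Cela1, the brightest gene of the reference list by mean, gave 806, 631 and 815, and with the 99th percentile of that list as background, or with the mean of its probe sets, Gata5 was not above background. The gene of an antisense RNA at the same locus, Gata5os, gave 7.3, 137 and 35 and was below background on every array.

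Gata6, known in smooth muscle, heart and endoderm, gave 3285 units of signal in replicate 3, 2900 in replicate 8 and 3387 in replicate 9, with a mean of 3191 ± 257. The 3 arrays lay close together, with the highest at 1.17 times the lowest. The centred range of 0.28 (log2) was larger than in 18.4% of the genes above background, and it was 0.08 without replicate 8. The other 2 probe sets gave 310, 260 and 472, and 183, 121 and 246, and neither was above background on any array. In all 3 Gata6 probe sets replicate 8 was the lowest and replicate 9 the highest. The median signal of the whole array had the same extremes, 198 in replicate 8 and 273 in replicate 9. Whether the order of the 2 probe sets below background comes from Gata6 or from the whole array was not tested, and it is not read as a pattern of Gata6.

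Cardiac and mesenchymal transcription factors that are known to act with Gata4, Gata5 and Gata6 were above background for 12 of 16. This is 75%, beside 54.2% of all named genes. The genes of the BMP signal transducers Smad4 and Smad1 had signals of 23865 ± 2360 and 19601 ± 2903, the MADS-box gene Mef2c 17488 ± 420 and the bHLH gene Hand2 10488 ± 7114. The serum response factor gene Srf had a mean of 3178 ± 1005. Tbx5 (41 ± 18), Nkx2-5 and Hand1 (222 ± 74) were below background on every array, and the myocardin gene Myocd (662 ± 408) was above it on 2. Hand2 gave 6637, 6130 and 18697 in replicates 3, 8 and 9, highest in the array where Gata5 and Gata6 were highest, as were 4 of the 12 partners above background against 31.9% of all genes above background. Mesothelial genes, of a cell layer in which GATA factors are known, were above background for 7 of 9, against 54.2% of all named genes. Krt19 was at 4986 ± 1414 and Wt1 at 1842 ± 254. Krt19 and Upk3b of this list were counted among the urothelial structural genes too. Msln (162 ± 109) was below background on every array, and Lrrn4 (354 ± 201) was above it on 2 arrays.

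**Figure D3:**
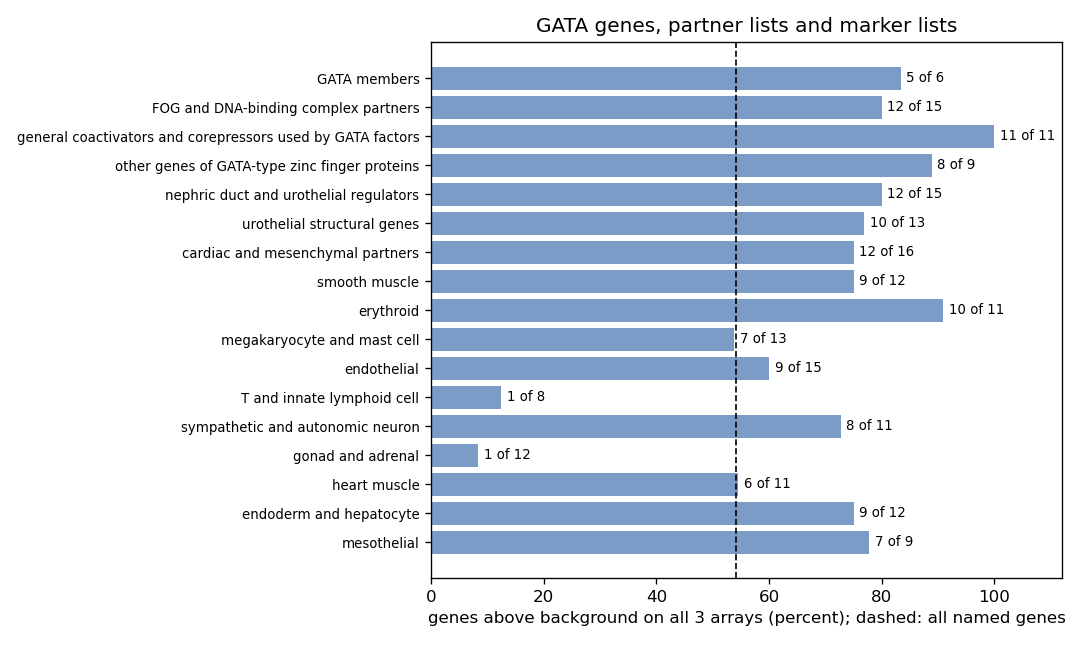
Percent of the measured genes of each list that were above background on all 3 arrays (bars, with the counts beside them), for the GATA genes, their partner lists and the marker lists. The dashed line marks the 54.2% of all named genes, which the GATA genes exceed with 5 of 6 and the gonad and adrenal list does not reach with 1 of 12.

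The FOG and DNA-binding complex partners were above background for 12 of 15 genes, against 54.2% of all named genes. The FOG cofactor genes Zfpm2 and Zfpm1 had signals of 9633 ± 1104 and 2829 ± 1078. In the blood complex, the adaptor gene Lmo2 was at 10669 ± 2952, the bHLH gene Tal1 at 9459 ± 2898 and the erythroid factor gene Klf1 at 9522 ± 3649. The bHLH genes Tcf3 and Lyl1 were at 6096 ± 877 and 2286 ± 871, the zinc finger gene Gfi1b at 1304 ± 312 and the LIM-domain gene Lmo4 at 1851 ± 246. The ETS genes Fli1 and Erg had means of 2021 ± 638 and 984 ± 262. Of the LIM-binding cofactors, Ldb2 was at 3220 ± 1475 with 3 of 3 probe sets above background, whereas Ldb1 (328 ± 75) was above background on 1 array. Runx1 (772 ± 645) was above it on 2 arrays and Spi1 (227 ± 75), a myeloid factor gene, on none.

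Some partners shared the array order of a GATA gene. Zfpm1 gave 3643, 1607 and 3238 in replicates 3, 8 and 9, Tal1 11603, 6162 and 10613, and Lmo2 13183, 7417 and 11405. These 3 genes, Lyl1 and Gfi1b were highest in replicate 3 and lowest in replicate 8, as was Gata1, which makes 5 of 12 against 14.2% of all genes above background. Klf1 (10859, 5394 and 12314) was also lowest in replicate 8. Zfpm2 differed less, with 9536, 10782 and 8581. Lmo4, Tcf3 and Erg were lowest in replicate 3 and highest in replicate 8, as was Gata2. This is 3 of 12, a small count, against 14.9% of all genes above background.

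**Figure D4:**
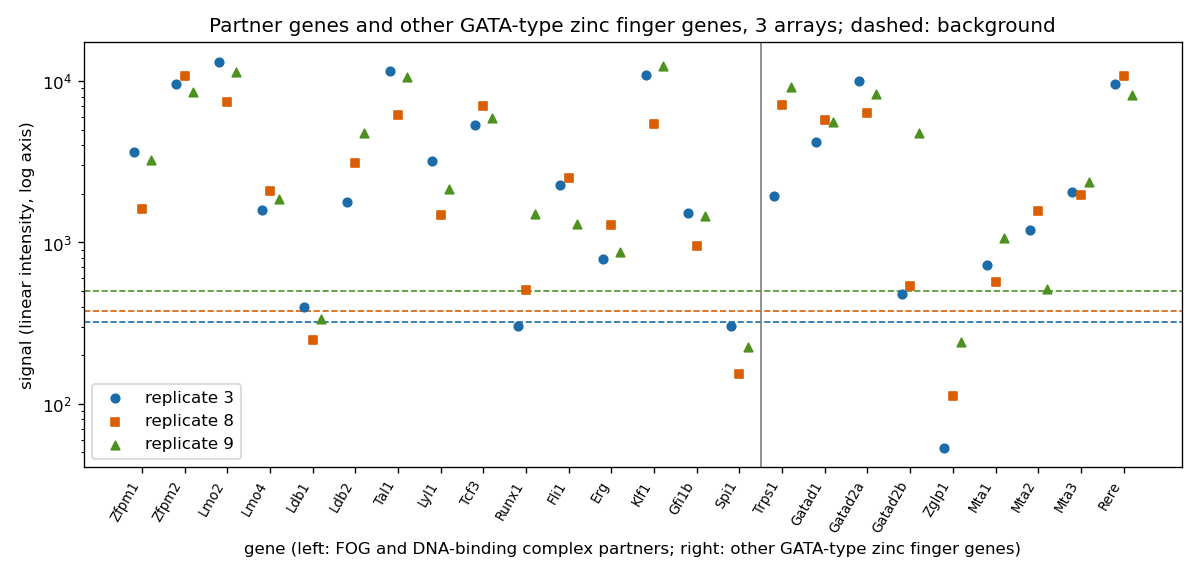
Signal (linear intensity on a log axis) of the 15 FOG and DNA-binding complex partners (left of the grey line) and of the 9 other genes of GATA-type zinc finger proteins (right) in replicates 3, 8 and 9, with each array's background as a dashed line. Zglp1 and Spi1 lie below the lines on every array, and Gatad2b in replicate 9 stands apart from its other two points.

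General coactivators and corepressors used by GATA factors were above background for 11 of 11 genes, including the histone-binding gene Rbbp4 (41131 ± 6827), the corepressor gene Ctbp1 (33538 ± 4854), the deacetylase gene Hdac2 (17629 ± 3668) and the acetyltransferase gene Crebbp (11179 ± 851). These act with many other factors as well. Of the other genes of proteins with a GATA-type zinc finger, 8 of 9 were above background. Rere, a nuclear receptor corepressor gene, had a mean of 9504 ± 1259, the NuRD subunit genes Gatad2a and Gatad2b 8230 ± 1889 and 1925 ± 2456, and Gatad1 5182 ± 859. The metastasis-associated genes of the same complex had means of 2126 ± 212 (Mta3), 1094 ± 534 (Mta2) and 788 ± 252 (Mta1). Trps1, a repressor gene of cartilage and hair, gave 1946, 7151 and 9136 in replicates 3, 8 and 9, lowest in replicate 3. Gatad2b gave 478, 538 and 4761, and its SD thus exceeded its mean. The germ cell gene Zglp1 (136 ± 96) was below background on each array.

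The array patterns nearest to that of a GATA gene were taken by the root mean square difference of centred deviations (log2) over the 3 arrays. With so few arrays many genes lie close, and the likeness is a description. For Gata2 the nearest were the adhesion gene Flrt3 (0.053; signals of 1067, 3207 and 1978 in replicates 3, 8 and 9), Pdzd2 (0.056) and the semaphorin gene Sema3e (0.068), and 8 of 9859 genes lay within 0.1. For Gata1, 312 genes lay within 0.1, the nearest being Tmbim4 (0.0063), the transporter gene Abcg2 (0.0092) and Abhd17a (0.0093). For Gata3 there were 495, led by Snw1 (0.0045), Ipo13 (0.0060) and Ercc4 (0.0083). For Gata5 there were 388, led by Zbtb24 (0.0090), Pitpnm2 (0.011) and Rnaseh2c (0.011), and for Gata6 there were 1128, led by Dync1h1 (0.0029), Alkbh5 (0.0036) and Snhg16 (0.0038).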

How the data were processed

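Per the submitters' processing notes, the values were made with GCOS (no version, method or setting given). As deposited they are linear intensities, 1 per probe set on each array, and the 2% trimmed means of the 3 arrays agree, which shows a scaling to 1 target. How background was treated, and any detection call, is not given in the sources used here. Gene names came from the platform annotation. Of 45101 probe sets, 34958 had 1 gene symbol (34754 matched the RefSeq gene table by Entrez ID, with 0 symbols changed), 932 had several and 9211 are not named here.

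From these, log2(signal + 1) was computed with Python 3.11.15, numpy 2.4.6 and pandas 2.3.3. The probe set brightest by mean log2 stood for its gene. A gene was above background when it exceeded, on each of the 3 arrays, the 95th percentile of 55 measured reference genes (59 listed). Deviations were centred on each array's median over genes above background. Members, lists and reference genes were chosen with earlier results of these data known. Named genes are the members, the partner and zinc finger lists, and genes of every other list. Those of the other lists were drawn from up to 4 genes with the highest mean and 4 not above background (lowest first). Not all of these are printed. Others (Srf, Rhd, Kel, Ret, Emx2, Cdh1, Upk1b, Upk3b, Wt1, Rag1, Th, Myh6, Pln, Uros, Cela1, Grm4 and Gata5os) were chosen after their values were seen. The procedure was tested on simulated data with genes set far above or far below background, which does not test calls close to it. With 1 group no test between conditions was possible, and none was run.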

Additional observations from a re-analysis of the deposited data

How the results depend on the processing

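The count of GATA genes above background was 5 of 6 as deposited and 4 to 5 over 12 alternatives: a pseudocount of 16 or of 64, quantile normalization, averaged probe sets, exclusion of the types _x_at and _s_at, a reference percentile of 90 or of 99, 2 arrays sufficing, a reference list lacking exocrine pancreas, and leaving out each replicate. Gata1, Gata2, Gata3 and Gata6 stayed above background and Gata4 below it in all 12, and Gata5 was not above background with averaged probe sets or the percentile of 99. Averaged probe sets lowered the number of all genes above background from 9859 to 7329, that of the cardiac and mesenchymal partners from 12 to 7 and that of the other GATA-type zinc finger genes from 8 to 5. Centred ranges of single genes rest on 3 arrays: that of Gata1 was 0.04 without replicate 8 and that of Gata5 0.19 without replicate 9. Chosen after seeing the data, centring and quantile normalization left 9 and 8 of 10 erythroid genes, 8 and 8 of 9 endoderm and hepatocyte genes lowest in replicate 8, and 8 and 7 of 8 sympathetic genes lowest in replicate 3. No paired analysis was possible because the samples form 1 group.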
